A study of Mus musculus with 9 samples.

Results

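The genes described here encode 10 iron-sulfur proteins of the nucleus and cytosol that work on DNA or on ribosomes, namely Pold1, Prim2, Dna2, Ercc2, Brip1, Rtel1, Ddx11, Nthl1, Mutyh and Abce1. They were chosen by name, and every probe whose RefSeq accession maps to one of these symbols was taken, which gave 11 probes, 2 of them for Dna2. They are 10 of the 20018 named genes on the array, and 9 of them were among the 14506 genes tested. RNA came from erythroblasts, the nucleated precursors of red blood cells, that had been sorted from bone marrow as subset II. All mice were wild-type (WT) C57BL/6J and labelled female, with no other allele or agent in the labels and no age. The ND group had a normal diet, and the LID_W_3w and LID_W_7w groups had a low iron diet started at weaning and kept up for 3 or 7 weeks. Each group had 3 samples, called biological replicates in the series text, and the labels do not say whether a sample is 1 animal or a pool. The design asks how gene expression in erythroblasts differs between dietary iron shortage and normal diet.

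An iron-sulfur cluster is an inorganic cofactor of iron and sulfide held by cysteines of a protein. Clusters for nuclear and cytosolic proteins are built on a scaffold in the cytosol and are then handed to their targets by a targeting complex. Replicative polymerase, primase, several DNA helicases and nucleases, 2 DNA glycosylases and the ATPase that splits ribosomes need such a cluster. Erythroblasts divide several times while they make haem, so iron, replication and protein synthesis meet in these cells. The arrays measured the messenger RNA of these genes, not their proteins or the clusters.

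Each sample was read on 1 single-colour Agilent array. A level here is the log2 processed signal of a gene's probe minus the 75th percentile of that array, and a probe was well above background where the scanner software said so for its spots. Between 65.5 and 66.3% of spots were well above background on the ND arrays, 56.8 to 70.8% on the LID_W_3w arrays and 45.2 to 53.6% on the LID_W_7w arrays. Spike-in controls lay 0.50 to 1.74 above the 75th percentile (log2) on ND arrays, 1.10 to 1.57 on LID_W_3w arrays and 4.44 to 5.35 on LID_W_7w arrays. No spot was saturated, and the brightest signal of any of the 10 genes was 8.03% of saturation. The 3 arrays of a group shared 1 slide and 1 scan, and no slide held 2 groups, so slide and diet cannot be told apart. All 10 erythroblast markers, among them glycophorin A and the globins, were well above background on all 9 arrays, with mean levels of 7.22 to 8.07. ND replicates 1 and 2 went against the label female: Eif2s3y, a Y-linked gene, was at 5.12 and 4.82 there and at -3.78 or lower on the other 7 arrays, and Xist was not well above background on these 2 arrays alone. The values of the 9 genes tested, and the counts of their partner lists, are therefore given against ND without these 2 arrays too. LID_W_7w replicate 1 stood apart from the other 2 arrays of its group, with a mean level of 20 S phase markers of 2.10 against 4.56 and 4.78. On the 6 other arrays that mean was 4.82 to 5.57. In RNA from sorted bulk cells, fewer cells of a kind and less RNA per cell cannot be told apart.

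After 3 weeks of low iron diet none of the 9 genes tested passed the test against ND. After 7 weeks Prim2 fell against ND, and Dna2, Ddx11 and Nthl1 fell against the 3 week group. No member of the group rose in any comparison. Brip1, Rtel1 and Ercc2 had group means within 1 log2 unit of each other throughout, whereas Pold1 and Abce1 had 1 very low array, LID_W_7w replicate 1, and 2 arrays within the range of ND. Dna2 was lowest on that array as well, but its other 2 LID_W_7w arrays also lay below all LID_W_3w arrays. Genes passed the test at an adjusted p under 0.05 (limma, Benjamini-Hochberg over all genes tested).

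These counts stand against a large background of changed genes. At 3 weeks against ND, 0 of 9 passed where 11.4% of all genes tested passed, 3.52% higher and 7.88% lower. At an unadjusted p under 0.05 it was also 0 of 9, where 29.6% of all genes lay under it, and in the 2 comparisons of the 7 week group with ND and with 3 weeks it was 3 and 4 of 9, where 43.1 and 47.4% did. At 7 weeks against ND, 1 of 9 fell, where 29.5% of all genes passed and 18.8% were lower. At 7 weeks against 3 weeks, 3 of 9 fell, where 37.2% of all genes passed and 19.6% were lower. The share that fell was thus below the background in the comparison of 7 weeks with ND and above it in that of 7 with 3 weeks, with counts too small to set the group apart. The arrays of the groups compared did not overlap for 3 of 9 genes at 3 weeks against ND, 1 of 9 at 7 weeks against ND and 5 of 9 at 7 against 3 weeks, while over all genes that share was 49.5, 47.4 and 48.4%. The median log2 fold change of the 9 genes was 0.12, -1.28 and -1.14 in these 3 comparisons, and that of all genes was -0.17, -0.26 and -0.13. Without LID_W_7w replicate 1 the median of the 9 genes was -0.45 against ND and -0.46 against 3 weeks, with 1 and 3 genes still called while the background rose to 35.9 and 44.7%. At 3 weeks the median of the 9 genes was -0.06 without LID_W_3w replicate 3. The 2 comparisons with ND share the ND arrays, and without ND replicates 1 and 2 no gene of this group or of its partner lists passed against ND, where 0 and 1 of all genes did.

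Against ND replicate 3 alone, with that array assumed to vary like the others, the log2 fold changes at 3 weeks were 0.24 for Pold1, -0.86 for Prim2, 0.60 for Dna2, -0.74 for Brip1, 0.32 for Rtel1, 0.998 for Ddx11, 1.17 for Nthl1, 0.56 for Mutyh and -0.42 for Abce1 (adjusted p by limma from 0.677 to 0.962). At 7 weeks they were -0.74 for Pold1, -2.13 for Prim2, -2.40 for Dna2, 0.003 for Brip1, 0.41 for Rtel1, -1.845 for Ddx11, -1.11 for Nthl1, -0.58 for Mutyh and -1.36 for Abce1 (adjusted p from 0.178 to 0.998). Of these 18 values only that of Pold1 at 3 weeks had another sign than with all 3 ND arrays.

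**Figure D1:**
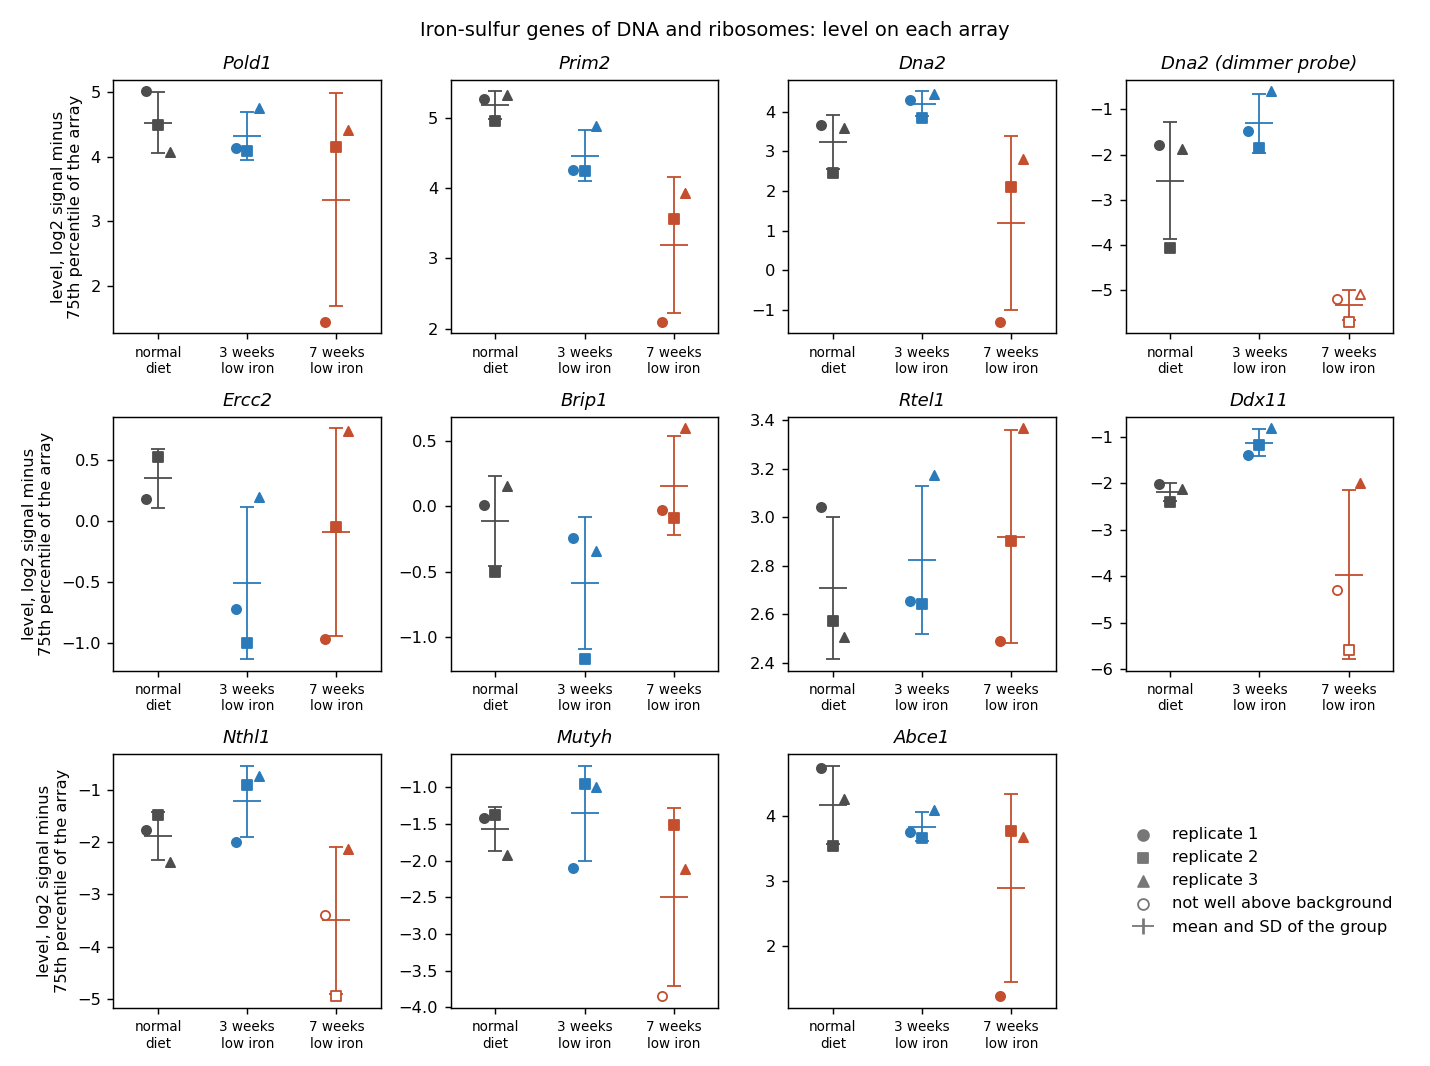
Level of each probe (log2 processed signal minus the 75th percentile of the array) on each array of the 3 groups. Each point is an array, its shape gives the replicate number, open points were not well above background, and bars give the mean and SD. Prim2 steps down from ND (4.95 to 5.32) to 7 weeks (2.09 to 3.92), and the circle of LID_W_7w replicate 1 lies lowest of all arrays for Pold1, Prim2, Dna2 (brighter probe), Mutyh, Abce1 and, narrowly, Rtel1.

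Prim2 encodes the large subunit of DNA primase, whose cluster-bearing domain helps lay down the RNA primers from which both strands are copied. Its level was 5.26, 4.95 and 5.32 on the ND arrays, 4.25, 4.25 and 4.88 on the LID_W_3w arrays, and 2.09, 3.56 and 3.92 on the LID_W_7w arrays. The 3 groups formed a descending series with no overlap between any of them. Groups that do not overlap, in the lower direction, were seen for 31.6% of all genes at 3 weeks against ND, 29.4% at 7 weeks against ND and 25.2% at 7 against 3 weeks. Prim2 fell by 1.99 on the log2 scale at 7 weeks against ND (SE 0.46, adjusted p = 0.0138). The fold change was -0.72 ± 0.46 at 3 weeks against ND (adjusted p = 0.328) and -1.27 ± 0.46 at 7 against 3 weeks (adjusted p = 0.0555), each ± its SE. Without LID_W_7w replicate 1 the difference from ND was -1.44 ± 0.29 (adjusted p = 0.00896), smaller and still called. The call at 7 weeks was lost without ND replicate 1 (-1.94, adjusted p = 0.0543) and without ND replicate 3 (-1.92, adjusted p = 0.0514). Without ND replicates 1 and 2 together the value was -2.13 (adjusted p = 0.178), a fit in which only 1 gene of the whole array passed.

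Pold1 encodes the catalytic subunit of DNA polymerase delta, which copies chiefly the lagging strand. It was at 5.01, 4.49 and 4.07 on the ND arrays, 4.13, 4.08 and 4.74 on the LID_W_3w arrays, and 1.44, 4.15 and 4.41 on the LID_W_7w arrays. LID_W_7w replicate 1 was the low array, and the other 2 arrays of that group lay within the range of ND. The fold change was -1.19 ± 0.70 at 7 weeks against ND (adjusted p = 0.222), and -0.24 ± 0.35 (adjusted p = 0.604) without that array. At 3 weeks it was -0.21 ± 0.70 against ND (adjusted p = 0.873), and this sign turned with the scaling of the arrays. At 7 against 3 weeks it was -0.98 ± 0.70 (adjusted p = 0.298), and -0.03 (adjusted p = 0.942) without LID_W_7w replicate 1.

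Dna2 encodes a nuclease and helicase that trims long flaps of Okazaki fragments and resects broken ends. Its brighter probe was at 3.67, 2.45 and 3.59 on ND, 4.30, 3.84 and 4.45 on LID_W_3w, and -1.31, 2.10 and 2.80 on LID_W_7w arrays. Every LID_W_3w array was above every ND array, which was so for 18% of all genes in that direction. Every LID_W_7w array was below every LID_W_3w array, which was so for 25.2% of all genes. Dna2 fell by 3.00 on the log2 scale at 7 against 3 weeks (SE 0.91, adjusted p = 0.0299). It was 0.96 ± 0.91 at 3 weeks against ND (adjusted p = 0.517) and -2.04 ± 0.91 at 7 weeks against ND (adjusted p = 0.119). Without LID_W_7w replicate 1 the difference between 7 and 3 weeks was -1.75 ± 0.43 (adjusted p = 0.0116), and that between 7 weeks and ND was -0.79 ± 0.43 (adjusted p = 0.177). The call at 7 against 3 weeks was lost without LID_W_3w replicate 1, 2 or 3 in turn (adjusted p = 0.0765, 0.0605 and 0.0875).

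The dimmer Dna2 probe gave a like picture on a lower signal. It was at -1.79, -4.06 and -1.87 on ND and -1.47, -1.86 and -0.60 on LID_W_3w arrays, while none of the LID_W_7w arrays had it well above background, with measured values of -5.19, -5.70 and -5.08. LID_W_7w replicate 1 was not the lowest of its group here. With every probe fitted on its own, this probe fell at 7 weeks against ND (-2.75 ± 0.61, adjusted p = 0.0118) and against 3 weeks (-4.01 ± 0.61, adjusted p = 0.0014). Since the 7 week values are only bounds, it was at least 1.96-fold lower than at ND and at least 4.72-fold lower than at 3 weeks. These bounds set the mean of the brighter group against the lowest signal well above background on each dim array, or the probe's own signal where that was higher.

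The replication enzymes have unlike upstream sequences, and the stretches shown here are those of Dna2 and Pold1. They come from the RefSeq promoter table (GRCm38.p6), 5′ to 3′ on the gene's strand, cut to the bases before the transcription start that lie in no annotated gene, with GGGCGG in either orientation (the GC box, a binding word of Sp1-type factors) in capitals. Dna2 is on chromosome 10 (chr10:62946779-62946982, plus strand) and Pold1 on chromosome 7 (chr7:44548816-44549065, minus strand).
Dna2: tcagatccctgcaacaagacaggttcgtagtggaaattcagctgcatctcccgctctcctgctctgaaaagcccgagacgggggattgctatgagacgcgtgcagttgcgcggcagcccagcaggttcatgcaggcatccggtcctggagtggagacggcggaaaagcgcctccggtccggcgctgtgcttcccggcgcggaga
Pold1: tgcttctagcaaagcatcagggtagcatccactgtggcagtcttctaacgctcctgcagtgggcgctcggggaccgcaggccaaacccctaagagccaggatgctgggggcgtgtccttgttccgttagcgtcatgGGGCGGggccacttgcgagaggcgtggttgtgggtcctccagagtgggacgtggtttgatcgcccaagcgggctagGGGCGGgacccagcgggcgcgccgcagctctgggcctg
Pold1 has 2 GC boxes in the 250 bases before its start, at positions -114 and -38 counted from the start, and Dna2 has none. Nthl1, which fell too, has one at -179. The NRF1 word is at -13 of Dna2, in bases next to the start that are not printed, and in 0.782% of all windows. The GC box is in 32.7% of 32851 mouse promoter windows of that length.

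The partners of these enzymes at the fork are the other subunits of polymerase delta, polymerase alpha and primase, the clamp and its loader, the single-strand binding protein, and the flap nuclease and ligase. None of these 17 genes passed at 3 weeks against ND by limma (2 at an unadjusted p under 0.05). After 7 weeks 4 fell against ND and 1 rose (Pold4, a small subunit of polymerase delta, 1.17 ± 0.35, adjusted p = 0.0356, named after its value was seen), with a median of -1.39. Pola2, the second subunit of polymerase alpha, fell by 3.43 on the log2 scale (SE 0.81, adjusted p = 0.0153) and was well above background on 2 of 3 LID_W_7w arrays. Pola1, the catalytic subunit of polymerase alpha, fell by 2.39 (SE 0.63, adjusted p = 0.0225), and Pold2, a subunit of polymerase delta, fell by 1.82 (SE 0.59, adjusted p = 0.0454). Between 7 and 3 weeks 3 fell, namely Pola2 (-4.32 ± 0.81, adjusted p = 0.00404), Pold2 (-2.37 ± 0.59, adjusted p = 0.0131) and the clamp loader gene Rfc3 (-3.14 ± 1.08, adjusted p = 0.0465). The bright partners at 3 weeks, Pcna (-0.59 ± 0.63, adjusted p = 0.573) and Rpa1 (-1.14 ± 0.43, adjusted p = 0.118), did not pass. Without LID_W_7w replicate 1 the median of the 17 was -0.52 against ND and -0.26 against 3 weeks, with 3 fallen in each. The number that fell against ND was 0 without ND replicate 1 or 3, 7 without LID_W_7w replicate 3, and 2 without ND replicate 2 or any 1 LID_W_3w array; the count that rose was 0 without LID_W_3w replicate 3, LID_W_7w replicate 1 or any 1 ND array. At 3 weeks 2 rose and 4 fell without LID_W_7w replicate 1. At 7 against 3 weeks the number that fell was 1 without LID_W_3w replicate 3, and 5 and 6 without LID_W_7w replicates 2 and 3. It was 2 without LID_W_3w replicate 1 or 2 or any 1 ND array. Rfc3 was called there in 3 of the 9 fits that leave out 1 array, and was well above background on 2 of 3 LID_W_7w arrays.

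**Figure D2:**
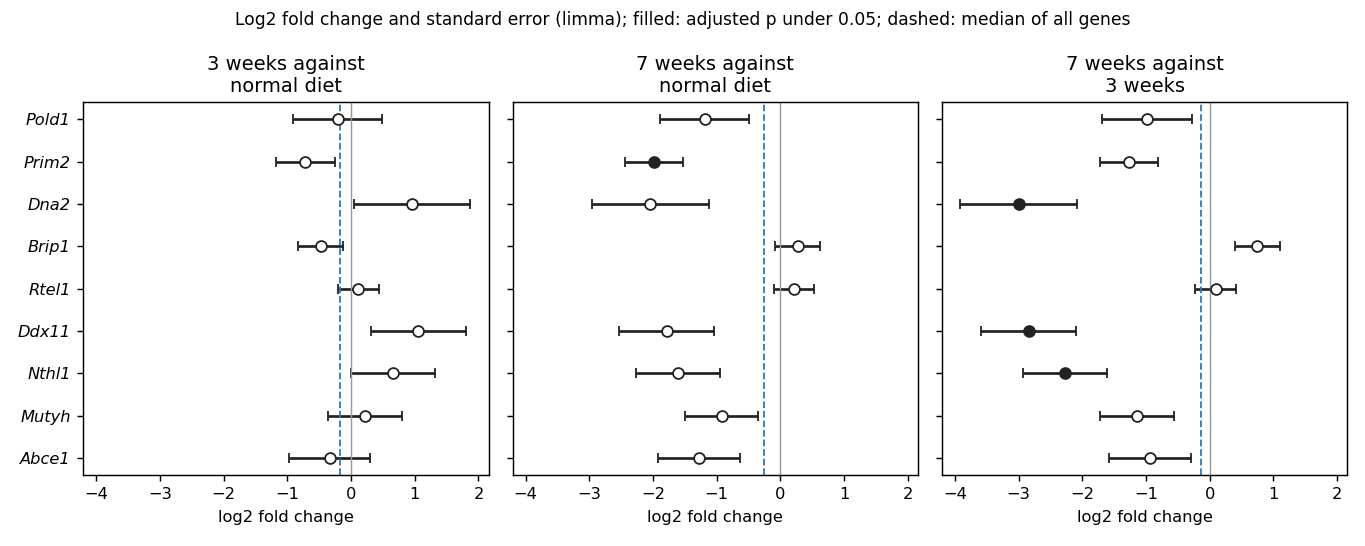
Log2 fold change of the 9 genes tested in the 3 comparisons, with bars of 1 standard error from the limma fit over 9 arrays. Filled points passed at an adjusted p under 0.05 and the dashed line is the median of all genes tested; no point is filled at 3 weeks against ND, Prim2 is at 7 weeks against ND, and Dna2, Ddx11 and Nthl1 are at 7 against 3 weeks.

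The 4 helicases of the group, Ercc2, Brip1, Rtel1 and Ddx11, belong to 1 family of DNA helicases. Ercc2, also called XPD, opens DNA at lesions as part of TFIIH, the factor of transcription initiation and nucleotide excision repair. It had no usable spot on ND replicate 3 and is not in the fit over 9 arrays, so its ND mean rests on ND replicates 1 and 2 alone, both of which go against the label female. Its level was 0.18 and 0.52 on the other ND arrays, -0.72, -0.997 and 0.19 on LID_W_3w arrays, and -0.96, -0.05 and 0.73 on LID_W_7w arrays. All 3 groups overlapped. In a fit that kept the gene over 8 arrays it was -0.86 ± 0.55 at 3 weeks against ND (adjusted p = 0.335), -0.44 ± 0.55 at 7 weeks against ND (adjusted p = 0.563) and 0.41 ± 0.49 at 7 against 3 weeks (adjusted p = 0.537).

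Brip1, also called FANCJ, is a partner of BRCA1 that unwinds DNA at crosslinks and at quadruplex structures. It was at 0.01, -0.50 and 0.16 on ND, -0.24, -1.17 and -0.35 on LID_W_3w, and -0.03, -0.09 and 0.60 on LID_W_7w arrays. All LID_W_7w arrays lay above all LID_W_3w arrays, which was so for 23.2% of all genes in that direction. The fold change between them was 0.75 ± 0.35 (adjusted p = 0.125), and it was -0.47 ± 0.35 at 3 weeks against ND (adjusted p = 0.399) and 0.27 ± 0.35 at 7 weeks against ND (adjusted p = 0.58). None passed.

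Rtel1 dismantles loops at telomeres and limits recombination. Its level was 3.04, 2.57 and 2.51 on ND, 2.66, 2.64 and 3.18 on LID_W_3w, and 2.49, 2.90 and 3.37 on LID_W_7w arrays, with all groups overlapping. Its 3 fold changes were 0.12 ± 0.32 (3 weeks against ND, adjusted p = 0.84), 0.21 ± 0.32 (7 weeks against ND, adjusted p = 0.636) and 0.09 ± 0.32 (7 against 3 weeks, adjusted p = 0.838). This was the smallest spread between group means among the 9 genes tested. LID_W_7w replicate 1 minus the mean of the other 2 arrays was -0.65 for Rtel1 and -0.28 for Brip1.

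Ddx11 encodes a helicase of sister chromatid cohesion, and it was the only one of these 4 that passed a test. It was at -2.02, -2.39 and -2.12 on ND and -1.38, -1.17 and -0.81 on LID_W_3w arrays. On LID_W_7w arrays it was at -4.31, -5.59 and -1.997, and only the third was well above background. Every LID_W_3w array was above every ND array, which was so for 18% of all genes in that direction. LID_W_7w replicate 3 was slightly above the highest ND array. Ddx11 fell by 2.84 on the log2 scale at 7 against 3 weeks (SE 0.74, adjusted p = 0.0162), and by 2.67 (SE 0.84, adjusted p = 0.032) without LID_W_7w replicate 1. These sizes rest largely on LID_W_7w arrays not well above background, so they are not measured fold changes. The call was lost without LID_W_3w replicate 3 (adjusted p = 0.0583). It was 1.06 ± 0.74 at 3 weeks against ND (adjusted p = 0.374) and -1.79 ± 0.74 at 7 weeks against ND (adjusted p = 0.0967). With the 6 arrays of 3 weeks and ND fitted alone, Ddx11 rose at 3 weeks (1.06, adjusted p = 0.0165), a fit that leaves out the wide LID_W_7w group and calls 4416 genes. Without LID_W_7w replicate 3 it fell at 7 weeks against ND too (-2.77, adjusted p = 0.00433).

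The upstream stretches of Ercc2 (chr7:19381767-19382016, plus strand) and Brip1 (chr11:86201216-86201359, minus strand, between Brip1 and the antisense gene Brip1os) are shown for a word that both repeat. Each has 3 copies of CCAAT or its reverse complement ATTGG, the binding word of the trimeric factor NF-Y, in the 250 bases before its start. The words and the GC boxes are in capitals, and in Brip1 the first ATTGG overlaps a GC box.
Ercc2: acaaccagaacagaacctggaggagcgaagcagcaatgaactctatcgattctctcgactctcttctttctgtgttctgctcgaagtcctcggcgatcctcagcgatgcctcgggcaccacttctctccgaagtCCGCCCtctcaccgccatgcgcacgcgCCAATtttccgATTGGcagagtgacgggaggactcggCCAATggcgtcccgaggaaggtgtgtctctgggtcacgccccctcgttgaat
Brip1: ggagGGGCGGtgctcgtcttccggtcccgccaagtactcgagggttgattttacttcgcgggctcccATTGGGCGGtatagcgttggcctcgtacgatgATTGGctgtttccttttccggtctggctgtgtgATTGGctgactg
The CCAAT word begins at positions -89, -78 and -52 from the Ercc2 start and at -99, -67 and -34 from that of Brip1. It is in 33.8% of all mouse promoter windows. Of the 10 genes, 8 have an entry in the table, all but Prim2 and Ddx11, and among these 8, CCAAT was found in 5 (Ercc2, Brip1, Mutyh, Abce1 and Nthl1, the last of which fell, but not in Rtel1), the GC box in 6 and TTTGAA, the cell cycle homology word, in none, where 16% of all windows hold it. The E2F words TTTCCCGC, TTTGGCGC, TTTCGCGC and TTTGCCGC, searched on both strands like the others, were found in Nthl1 alone, at position -132, and are in 1.86% of all windows. These are matches of letters, not binding sites.

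The TFIIH partners of Ercc2 are the other 9 subunits of that complex. At 3 weeks against ND, 1 rose, Gtf2h3, a core subunit (1.64 ± 0.41, adjusted p = 0.0342), and the median was 0.65. Against ND at 7 weeks, 4 fell with a median of -0.93, led by Ccnh, the cyclin of the TFIIH kinase (-3.56 ± 0.66, adjusted p = 0.00658, well above background on 2 of 3 LID_W_7w arrays). Ercc3, the second helicase of TFIIH, fell by 1.38 (SE 0.32, adjusted p = 0.0146), and Gtf2h3 fell by 1.32 (SE 0.41, adjusted p = 0.038). Between 7 and 3 weeks 6 of 9 fell with a median of -1.81, with Gtf2h3 at -2.97 ± 0.41 (adjusted p = 0.00105), Ccnh at -2.76 ± 0.66 (adjusted p = 0.011) and Ercc3 at -2.31 ± 0.32 (adjusted p = 0.00116). That count of 6 was the same in each of the 9 fits that leave out 1 array, and the median without LID_W_7w replicate 1 was -1.68. The count against ND was less steady, from 1 without ND replicate 1 or 3, and 2 without LID_W_7w replicate 1 or any LID_W_3w array, to 4. The rise of Gtf2h3 at 3 weeks was called in 4 of those 9 fits. The other 3 partners, Gtf2h5 (0.72), Mnat1 (0.49) and Gtf2h1 (-0.33), did not pass at 7 against 3 weeks. Ercc2 was at 0.41 there in its fit over 8 arrays, and its difference from the partners was not tested.

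The helicase partners are 11 genes of the Fanconi anaemia and BRCA1 pathway and of the fork protection complex. None passed at 3 weeks against ND by limma (2 at an unadjusted p under 0.05), and the 2 brightest, Tipin (-0.65 ± 0.59, adjusted p = 0.496) and Fancl (-0.58 ± 0.39, adjusted p = 0.359), lay below 0. After 7 weeks 4 fell against ND, with a median of -1.25. Brca1, the binding partner of Brip1, fell by 2.67 (SE 0.48, adjusted p = 0.00589) and was well above background on 1 of 3 LID_W_7w arrays. Fancd2, a clamp that marks crosslinks, fell by 1.93 (SE 0.47, adjusted p = 0.0173), and Fancl, the ubiquitin ligase that modifies it, by 1.76 (SE 0.39, adjusted p = 0.0124). Against 3 weeks 4 fell as well, with Brca1 at -4.00 ± 0.48 (adjusted p = 0.000665), Fancd2 at -2.95 ± 0.47 (adjusted p = 0.00202) and Fancl at -1.18 ± 0.39 (adjusted p = 0.0427). Without LID_W_7w replicate 1 the medians were -0.81 and -0.44, with 3 and 4 fallen. Against ND the count was 1 without ND replicate 1 and 2 without ND replicate 3, and against 3 weeks it was 2 without LID_W_3w replicate 1, LID_W_3w replicate 3 or ND replicate 3.

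Nthl1 and Mutyh encode DNA glycosylases, enzymes that cut damaged or mispaired bases out of DNA. Nthl1 removes oxidised pyrimidines. Its level was -1.77, -1.49 and -2.39 on ND, -2.004, -0.92 and -0.74 on LID_W_3w, and -3.40, -4.95 and -2.14 on LID_W_7w arrays, where only the third was well above background. The LID_W_7w arrays lay below all LID_W_3w arrays, which was so for 25.2% of all genes, and overlapped with ND through replicate 3. Nthl1 fell by 2.28 on the log2 scale at 7 against 3 weeks (SE 0.66, adjusted p = 0.0249), and by 2.32 (SE 0.76, adjusted p = 0.036) without LID_W_7w replicate 1. As for Ddx11, these sizes rest largely on LID_W_7w arrays not well above background. The call was lost without LID_W_3w replicate 2 (adjusted p = 0.0759), LID_W_3w replicate 3 (0.0865) or LID_W_7w replicate 2 (0.0531). It was 0.66 ± 0.66 at 3 weeks against ND (adjusted p = 0.537) and -1.61 ± 0.66 at 7 weeks against ND (adjusted p = 0.0932). The 250 bases before its start lie almost wholly within the neighbouring gene Tsc2.

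Mutyh removes adenine paired with oxidised guanine. It was at -1.42, -1.37 and -1.92 on ND, -2.11, -0.96 and -1.003 on LID_W_3w, and -3.85, -1.51 and -2.12 on LID_W_7w arrays, the first of these not well above background. All groups overlapped. The fold change was 0.22 ± 0.58 at 3 weeks against ND (adjusted p = 0.837), -0.92 ± 0.58 at 7 weeks against ND (adjusted p = 0.248) and -1.14 ± 0.58 at 7 against 3 weeks (adjusted p = 0.151). Without LID_W_7w replicate 1 the values at 7 weeks were -0.25 and -0.46.

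Among the other 13 genes of base excision repair, few passed. At 3 weeks against ND, 2 fell, with a median of -0.26. Ogg1, the glycosylase of oxidised guanine, was lower by 2.61 (SE 0.38, adjusted p = 0.00939). Its arrays were at -2.88, -2.69 and -3.34 on ND and -5.66, -5.97 and -5.12 on LID_W_3w. It was well above background on 1 of 3 arrays at 3 weeks and 1 of 3 at 7 weeks. The gene was tested only because all 3 ND arrays had it well above background, so the size of its fall was not measured. Mpg, the glycosylase of alkylated purines, fell by 1.48 on its brightest probe (SE 0.27, adjusted p = 0.0155), while its other probe gave 0.32 (adjusted p = 0.441). After 7 weeks none passed against ND by limma (3 at an unadjusted p under 0.05), with a median of -0.25 that was 0.06 with the percentile over probes detected on all 9 arrays; the 2 brightest genes were Ung, the uracil glycosylase (-0.08 ± 0.36, adjusted p = 0.887), and Mpg (0.34 ± 0.27, adjusted p = 0.36). Between 7 and 3 weeks 3 of 13 rose and 2 fell, where 17.6% of all genes rose and 19.6% fell, counts too small to set the list apart. The median was -0.32, and 0.20 without LID_W_7w replicate 1. Parp1, which signals strand breaks, fell by 3.31 (SE 1.16, adjusted p = 0.0494; well above background on 2 of 3 LID_W_7w arrays), while Mpg rose by 1.82 (SE 0.27, adjusted p = 0.00143; other probe 0.11). Ogg1 is counted among the 3 at 1.69 ± 0.38 (adjusted p = 0.00884), but with 1 of 3 arrays well above background in each of the 2 groups this is no measured rise. The 2 genes that fell at 3 weeks were 1 without any of ND replicates 1, 2 and 3 or LID_W_3w replicates 1 and 2. Ogg1 was called in all 9 fits that leave out 1 array, with the same limit from its dim 3 week values. Parp1 was called in 3 of those 9. The count that fell at 7 against 3 weeks was 0 without LID_W_3w replicate 3 and 1 without LID_W_3w replicate 1 or 2 or any 1 ND array.

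Abce1 encodes the ATPase that splits ribosomes after termination so that their subunits can be used again. Its level was 4.73, 3.53 and 4.25 on ND, 3.75, 3.66 and 4.08 on LID_W_3w, and 1.23, 3.77 and 3.67 on LID_W_7w arrays. LID_W_7w replicate 1 was far below every other array and the other 2 lay among those of ND and 3 weeks. The fold change was -0.34 ± 0.64 at 3 weeks against ND (adjusted p = 0.76), -1.28 ± 0.64 at 7 weeks against ND (adjusted p = 0.156) and -0.94 ± 0.64 at 7 against 3 weeks (adjusted p = 0.273). Without that array the 7 week values were -0.45 ± 0.36 (adjusted p = 0.35) and -0.11 ± 0.36 (adjusted p = 0.818).

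The partners of Abce1 in translation release and ribosome recycling were 10 genes, of which 8 were measured. At 3 weeks against ND, 2 fell, with a median of -0.81. Pelo, which rescues stalled ribosomes, fell by 1.09 (SE 0.25, adjusted p = 0.0274). Eif3j1, a factor that clears RNA from the small subunit, fell by 1.37 on its brightest probe (SE 0.36, adjusted p = 0.0424), and its other probe gave -0.11 (adjusted p = 0.851). None passed at 7 weeks against ND by limma (2 at an unadjusted p under 0.05; median -0.39), with Pelo at -0.20 ± 0.25 (adjusted p = 0.557) and its partner Hbs1l at -0.48 ± 0.39 (adjusted p = 0.37), although 2 other Hbs1l probes gave -1.79 (adjusted p = 0.022) and -2.71 (adjusted p = 0.0245). Between 7 and 3 weeks 2 rose and 2 fell (median 0.05, and -0.08 with quantile normalization): Eif3j1 rose by 1.92 (SE 0.36, adjusted p = 0.00415; other probe -0.73), Pelo rose by 0.89 (SE 0.25, adjusted p = 0.0212) and the release factor Etf1 fell by 1.69 (SE 0.38, adjusted p = 0.00914). At 3 weeks the count of 2 was 0 without any 1 of the ND or LID_W_3w arrays and 4 without LID_W_7w replicate 1. At 7 against 3 weeks the count that rose was 1 without LID_W_3w replicate 2 or 3, and the count that fell was 2 without LID_W_7w replicate 3 or ND replicate 1 and 1 without any other array.

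**Figure D3:**
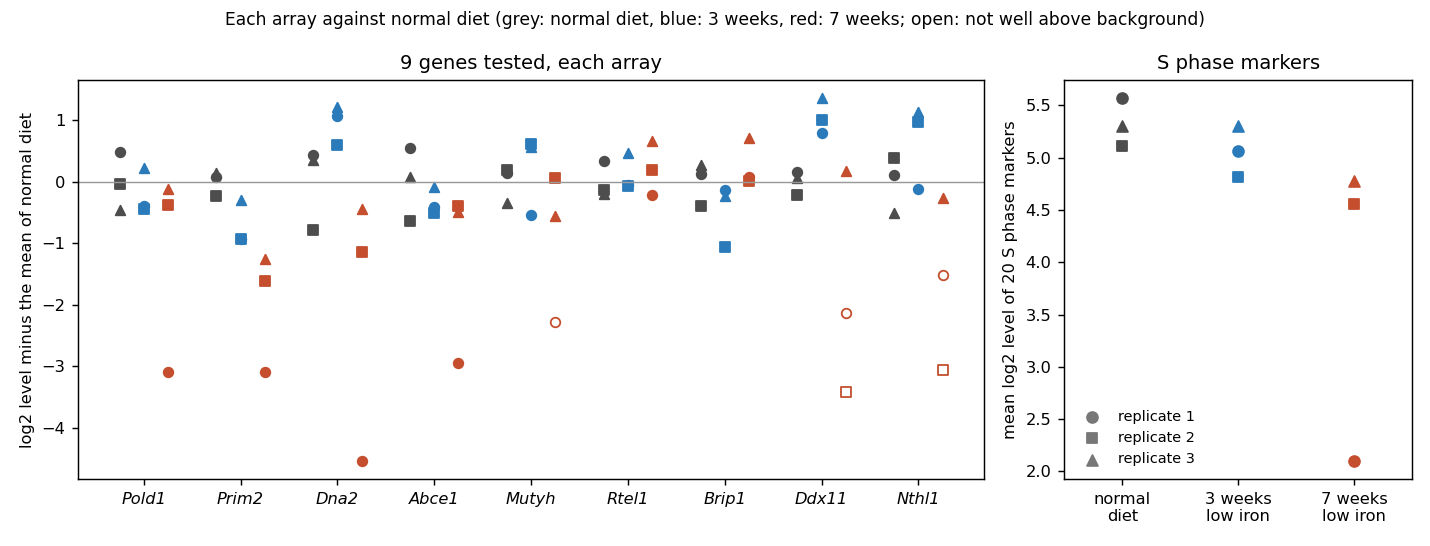
Left, the level of each of the 9 genes on each array minus the mean of the ND arrays for that gene (log2); right, the mean log2 level of 20 S phase markers on each array. The red circle, LID_W_7w replicate 1, is far below the rest for Pold1, Dna2 and Abce1 and for the S phase markers (2.10), while for Ddx11 and Nthl1 replicates 1 and 2 are both open points, not well above background.

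The low array at 7 weeks stood apart for several of the genes. LID_W_7w replicate 1 minus the mean of replicates 2 and 3 was -3.75 (log2) for Dna2, -2.84 for Pold1, -2.5 for Abce1, -1.65 for Prim2 and -1.31 for Ercc2. It was -2.03 for Mutyh, whose replicate 1 was not well above background. Ddx11, Nthl1 and the dimmer Dna2 probe have no measured gap, since replicates 1 and 2 were not well above background. Over all genes the median gap was -0.0064, and 6.82% of genes were lower by more than 2. The 20 S phase markers, genes of the replicative helicase, its loaders and nucleotide supply, were low on the same array. At 7 weeks against ND 4 fell, with a median of -1.41 that was -0.49 without that array. The calls did not rest on that array alone. In the 9 fits that leave out 1 array, Ccne2 and Cdc45 were called against ND in all 9 and Slbp in 7. The leading ones were Ccne2, a cyclin of S phase entry (-3.65 ± 0.60, adjusted p = 0.00442), Cdc45, a subunit of the replicative helicase (-3.25 ± 0.58, adjusted p = 0.00594), and Slbp, the histone RNA binding protein (-3.04 ± 0.70, adjusted p = 0.0138). At 7 against 3 weeks 4 fell, with a median of -0.91 that was 0.00 without that array. At 3 weeks none passed, by limma (1 at an unadjusted p under 0.05); the brightest were Rrm2, a subunit of ribonucleotide reductase (-0.41 ± 0.41, adjusted p = 0.535), and Mcm7, a subunit of the replicative helicase (-0.47 ± 0.51, adjusted p = 0.58). The count that fell against ND was 2 without ND replicate 1 or 3, and 6 and 7 without LID_W_7w replicates 1 and 3, and without LID_W_7w replicate 1, 1 rose and 3 fell at 3 weeks. Their part in the results on the iron-sulfur genes was not tested.

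Markers of other blood cells moved too. Of 7 monocyte and macrophage markers measured, 4 rose at 3 weeks against ND, 2 fell at 7 weeks against ND and 5 fell at 7 against 3 weeks, with mean levels of 0.81 to 1.37 on ND, 2.13 to 2.89 on LID_W_3w and 0.43 to 0.78 on LID_W_7w arrays, all well above background. Their group means run in the order 3 weeks, ND, 7 weeks, as do those of Dna2, Ddx11, Nthl1 and Mutyh. The megakaryocyte markers and, narrowly, the neutrophil markers have the same order, and the share of all genes with it was not counted. The 6 mast cell, basophil and eosinophil markers had mean levels of -1.27 to 0.50 on ND, -4.55 to 0.09 on LID_W_3w and -4.88 to -3.91 on LID_W_7w arrays, where 1 or 2 of 6 were well above background; 2 fell at 7 weeks against ND and 1 against 3 weeks. The 8 neutrophil markers had mean levels of 2.99 to 4.54, 4.16 to 5.16 and 3.13 to 4.18. Of these 2 rose at 3 weeks, 1 rose at 7 weeks against ND (Elane, a granule protease, 2.597 ± 0.42, adjusted p = 0.0043), and 2 rose and 3 fell at 7 against 3 weeks. Elane did not stand for the list at 7 weeks against ND, where 5 of 8 markers were below 0 and the median was -0.16. Mpo, another marker of the list, went the other way without passing, with means of 2.24 on ND and -0.64 on LID_W_7w arrays. The 5 megakaryocyte markers had mean levels of -0.37 to 1.15, 0.74 to 2.29 and -1.07 to -0.12, and 1 fell at 7 weeks against each of the other groups. The 6 B lineage markers had mean levels of -1.88 to -1.04, -0.93 to 0.39 and -1.84 to -0.21. Of these 2 rose at 3 weeks, and at 7 weeks Cd79a, a part of the B cell receptor, rose and Ms4a1, the CD20 gene, fell against both other groups (1.28 and -1.26 against ND, adjusted p = 0.0332 and 0.0371). The 7 T and NK markers had mean levels of -1.07 to -0.55, -0.53 to 0.50 and -0.65 to 0.30. None of them passed at 3 weeks by limma (1 at an unadjusted p under 0.05). Cd4 rose at 7 weeks against ND on its brightest probe (1.68 ± 0.42, adjusted p = 0.0189), while its other probe gave -0.10 (adjusted p = 0.812). Cd3e rose at 7 against 3 weeks (1.27 ± 0.29, adjusted p = 0.00891). Cd8a passed as lower there, but it was not well above background on any LID_W_7w array. Its bound, taken as for the dimmer Dna2 probe, was only 0.894-fold, so no fall was measured. The other Cd8a probe gave -0.74 (adjusted p = 0.0922). The part of all these markers in the falls of Dna2, Ddx11, Nthl1 and Prim2 was not tested.

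Several of these marker counts rest on single arrays. The 4 monocyte and macrophage markers that rose at 3 weeks were 1 without ND replicate 1, ND replicate 2 or LID_W_3w replicate 2, and 2 without LID_W_3w replicate 1 or 3, whereas the 5 that fell at 7 against 3 weeks were 5 in each of the 9 fits that leave out 1 array. The 2 B lineage markers that rose at 3 weeks were 0 without LID_W_3w replicate 2 or 3 or any 1 ND array, and 1 without LID_W_3w replicate 1. The 2 neutrophil markers that rose at 3 weeks were 1 without LID_W_3w replicate 2 and 4 without LID_W_7w replicate 1, and the 2 that rose at 7 against 3 weeks were 0 without LID_W_3w replicate 1. The 2 mast cell, basophil and eosinophil markers that fell at 7 weeks against ND were 1 without LID_W_7w replicate 2 or 3 or any 1 ND array, 3 without LID_W_3w replicate 2 or LID_W_7w replicate 1, and 5 without LID_W_3w replicate 1. The megakaryocyte marker that fell against ND, Gp9, was called in 6 of the 9 fits, and no marker of that list fell without ND replicate 2 or 3. Against ND at 7 weeks no T and NK marker rose without ND replicate 1 or 3, and no B lineage marker rose or fell without any 1 ND array or LID_W_3w replicate 1.

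The other nuclear and cytosolic iron-sulfur proteins fixed as a list are 15 genes, of which 13 were measured. None passed at 3 weeks against ND by limma (1 at an unadjusted p under 0.05), with the brightest, Rsad2, an antiviral enzyme, at -0.09 ± 0.45 (adjusted p = 0.92) and Pole, the catalytic subunit of polymerase epsilon, at -0.04 ± 0.62 (adjusted p = 0.974). Against ND at 7 weeks, 2 fell, with a median of -0.76: Rev3l, the catalytic subunit of the translesion polymerase zeta, by 2.33 (SE 0.35, adjusted p = 0.00338), and Tyw1, a tRNA modifying enzyme, by 1.41 (SE 0.36, adjusted p = 0.0207). Rev3l was called in all 9 fits that leave out 1 array. Against 3 weeks 3 fell, with a median of -0.69: Xdh, xanthine dehydrogenase (-2.19 ± 0.72, adjusted p = 0.0404), Rev3l (-1.79 ± 0.35, adjusted p = 0.00452) and Tyw1 (-1.26 ± 0.36, adjusted p = 0.0237). Of these Xdh was called in 2 of the 9 fits. The counts were 1 against ND without ND replicate 1 or 2 and 4 without LID_W_7w replicate 3, and 1 against 3 weeks without LID_W_3w replicate 2 or 3.

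The 9 genes of cytosolic cluster assembly described here were all measured, and none passed at 3 weeks against ND by limma (2 at an unadjusted p under 0.05). Their median was -0.25 and turned to 0.43 with normexp background correction. The brightest there were Ndor1, the reductase of the assembly chain (-0.42 ± 0.26, adjusted p = 0.319), and Ciao2a, a targeting factor (0.01 ± 0.37, adjusted p = 0.989). At 7 weeks against ND, 1 fell and 1 rose, with a median of -0.08 that was 0.23 with the percentile over probes detected on all 9 arrays, 0.12 without LID_W_7w replicate 1 and 0.06 without LID_W_7w replicate 2. Nubp2, a subunit of the scaffold on which clusters are built, fell by 1.82 (SE 0.42, adjusted p = 0.0138). Ndor1 rose by 0.87 (SE 0.26, adjusted p = 0.036), while its other probe gave 0.40 (adjusted p = 0.251). At 7 against 3 weeks 2 rose and 1 fell, with Nubp2 at -1.58 ± 0.42 (adjusted p = 0.0179), Ndor1 at 1.30 ± 0.26 (adjusted p = 0.00556) and Ciao2b, a targeting factor, at 1.24 ± 0.27 (adjusted p = 0.00689). The median was -0.25 and turned to 0.37 without LID_W_7w replicate 1. The fall of Nubp2 against ND was called in 8 of the 9 fits that leave out 1 array, the exception being the fit without ND replicate 1, and the rise of Ndor1 in 3 of the 9. Against 3 weeks the count that fell was 0 without LID_W_3w replicate 2 or 3 and 2 without LID_W_7w replicate 1 or 2.

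**Figure D4:**
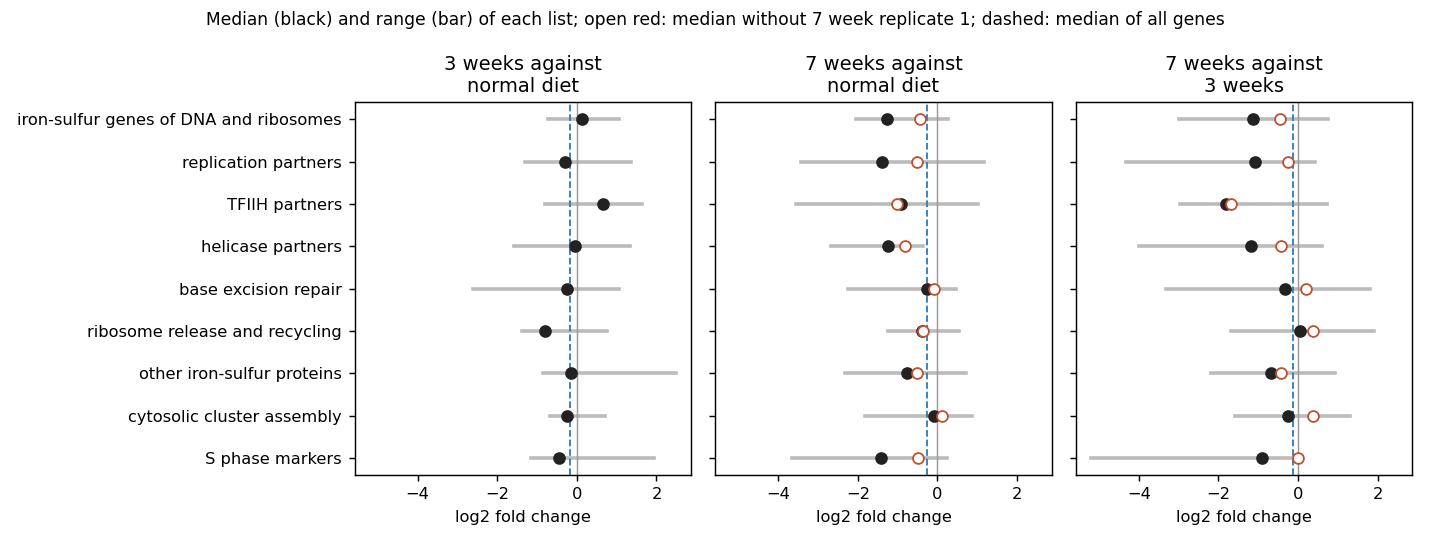
Median (black point) and range (grey bar) of the log2 fold changes in each gene list for the 3 comparisons, with the median without LID_W_7w replicate 1 as an open red point and the median of all genes as a dashed line. The medians of the iron-sulfur genes, the replication partners and the S phase markers move towards 0 without that array, and that of the TFIIH partners at 7 against 3 weeks moves little, from -1.81 to -1.68.

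The genes whose levels followed that of Prim2 most closely were found by centring each gene on its mean over the 9 arrays and taking the mean absolute difference. Haus4, a subunit of the augmin complex of the mitotic spindle, differed by 0.15 (log2) from Prim2 on average, and Lnpep, a membrane aminopeptidase, and Msh3, a mismatch repair protein, by 0.16 each. The median over all genes was 0.89. Centred on their own means, Prim2 was at 0.99, 0.68 and 1.04 on ND, -0.02, -0.03 and 0.61 on LID_W_3w, and -2.18, -0.72 and -0.35 on LID_W_7w arrays. Haus4 was at 0.88, 0.78 and 0.77, then -0.01, -0.09 and 0.54, then -1.75, -0.88 and -0.24. Both step down in the same order, with LID_W_7w replicate 1 the lowest array for each. At 7 weeks against ND, Haus4 was at -1.77 ± 0.39 (adjusted p = 0.0112), Lnpep at -2.17 ± 0.46 (adjusted p = 0.0102) and Msh3 at -1.93 ± 0.54 (adjusted p = 0.0279). These 3 genes were picked for their likeness to a gene that fell, so their values describe the pattern and do not support it.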

How the data were processed

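The authors deposited 9 scanner files of Agilent Feature Extraction 10.7.3.1 and a table of log2 values of the same arrays, per the file headers. Per the labels, RNA was amplified and labelled with Cy3. The processed signal is an intensity that the authors' software had background-corrected, per the file headers, with coordinates on mm9. From it, log2 intensity minus each array's 75th percentile over usable non-control spots was computed, spots of a probe were averaged, and each gene was read by its brightest tested probe. A probe was tested where at least 0.5 of its spots were well above background on all 3 arrays of a group. One limma 3.58.1 fit (R 4.3.3) over 9 arrays gave two-sided tests, with Benjamini-Hochberg adjustment over 14506 genes and a threshold of 0.05. The script was tested on simulated data. Genes were named through RefSeq accessions. One gene of the cluster assembly list is not reported here, and that list's counts leave it out. The number of arrays limits the precision.

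The members and the gene lists were chosen with earlier results of these data known. Named from each list were the up to 3 called genes of largest fold change in each comparison, or its 2 brightest where none passed; the 3 genes most like the called member were named too. In the authors' deposited log2 table, compared with the scanner values, scale and direction agree (r of 0.997 to 0.999, slopes of 0.993 to 1) and each gene's centring is not stated; the median of an array was -0.02 to 0. The labels do not say that equal replicate numbers pair the samples, and the main fit took them as unpaired. Deviations correlated at -0.172 to 0.286 for equal numbers and -0.266 to 0.245 for others, ranges that overlap and cannot settle whether samples were paired. Alternatives were other scalings, filters, probe rules, fits and left-out arrays.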

Additional observations from a re-analysis of the deposited data

Results flagged for a closer look

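Of the 9 genes tested, 3 differed between the low iron diet of 7 weeks and that of 3 weeks by a test of the difference itself, which is the difference between their changes from normal diet. Of all genes tested, 37.2% passed this test and 19.6% were lower, and a count of 3 is too small to set these genes apart. The log2 difference was -3.001 for Dna2, -2.84 for Ddx11 and -2.28 for Nthl1. In each, the mean of LID_W_3w was above that of normal diet and the mean of LID_W_7w below it. Ddx11 and Nthl1 were well above background on 1 of 3 LID_W_7w arrays.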

How the results depend on the processing

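Leaving out 1 array at a time, the whole-array counts ran from 198 to 3503 genes at 3 weeks against normal diet, 1739 to 5211 at 7 weeks against normal diet and 3544 to 6489 at 7 against 3 weeks; the iron-sulfur genes called were 0 throughout in the first, 0 to 4 in the second and 0 to 4 in the third. With only the arrays compared, the whole-array counts were 4416 and 2819 of 14506 against normal diet and 3991 (27.5%) at 7 against 3 weeks, and 1 iron-sulfur gene was called in each of the 3 comparisons. Without ND replicates 1 and 2, which leaves 1 array assumed to vary like the others, the counts against normal diet were 0 and 1 genes, with 0 iron-sulfur genes at 7 weeks and 1 (Ddx11) at 7 against 3 weeks, where 3991 genes (27.5%) were called. Without a filter on dim probes 6939 genes were called at 7 weeks against normal diet, and the mean over a gene's probes added Dna2 (-2.39, adjusted p = 0.0211) for 2 iron-sulfur genes there. Prim2 at 7 against 3 weeks was called with quantile normalization (-1.33, adjusted p = 0.0489), normexp on the median signal (-1.36, 0.0385), the authors' table (-1.35, 0.0481), the filter on all 9 arrays (-1.27, 0.043), a replicate block (-1.27, 0.0472) and without LID_W_7w replicate 3 (-1.63, 0.0251). The block gave 1401, 4062 and 5245 genes and 0, 1 and 4 iron-sulfur genes in the 3 comparisons and changed no other call of the 9 genes. With only the arrays compared, or without ND replicates 1 and 2, Dna2 (-3.001, adjusted p = 0.0635) and Nthl1 (-2.28, adjusted p = 0.0575) lost their call at 7 against 3 weeks, and without those 2 arrays Prim2 lost its call at 7 weeks against normal diet (-2.13, adjusted p = 0.178). Leaving out 1 array, Prim2 ran from -2.35 to -1.44 there, and at 7 against 3 weeks Dna2 ran from -3.8 to -1.75, Ddx11 from -3.83 to -2.03 and Nthl1 from -2.95 to -1.55. Values that changed sign, none of them called, were Pold1 at 3 weeks against normal diet with quantile normalization (0.15), the 75th percentile over probes detected on all 9 arrays (0.0337), normexp (0.0383) and without ND replicates 1 and 2 (0.24), with -0.436 to 0.0326 when leaving out 1 array; and Rtel1, which ran from -0.0592 to 0.284, -0.0122 to 0.427 and -0.129 to 0.31 in the 3 comparisons when leaving out 1 array. The cause of these changes was not tested. The percentile over probes detected on all 9 arrays moved the median of all genes to 0.07, 0.05 and -0.06 and the genes called higher and lower to 702 and 523, 2198 and 1730, and 2613 and 2654, from 510 and 1143, 1559 and 2721, and 2546 and 2845; quantile normalization gave 615 and 808, 1504 and 2458, and 2267 and 3212. Normexp on the mean signal was not run, since the median signal was the column used, a choice made after seeing the data, as was keeping Ercc2. Signals near background on the LID_W_7w arrays limit Ddx11, Nthl1, Mutyh and the dimmer Dna2 probe.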
